A study of Mus musculus with 2 samples.

Results

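The genes described here are the subunits of the muscle acetylcholine receptor (Chrna1, Chrnb1, Chrnd, Chrne and Chrng), the receptor kinase gene Musk, and the denervation-response genes Myog, Ncam1 and Runx1. They were found by symbol and make up 9 of the 27998 genes in each matrix. Single-nucleus RNA sequencing (snRNA-Seq) was done on nuclei of the gastrocnemius-plantaris (GP) muscle of the mouse calf, with 1 library per group. Net39, whose gene carries the symbol Plpp7, is a muscle protein of the nuclear envelope, and the comparison asked how nuclei of adult muscle differ after its loss. Ctrl mice were Net39 fl/fl and Cre-, with both copies of the first exon flanked by loxP sites. The cKO mice were HSACreERT2;Net39 fl/fl, in which the human skeletal actin promoter drives a tamoxifen-dependent Cre in muscle fibers. All mice were on a B6C3F1 background and 5 months old, 3 months after the tamoxifen that both groups received, and each library pooled 3 muscles. Satellite cells, endothelial cells and the other cells around the fibers keep the floxed gene in this model.

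The acetylcholine receptor of muscle is a ring of subunits that opens when nerve endings release acetylcholine, with the epsilon subunit in the adult form and the gamma subunit in the fetal form. In an innervated fiber, receptor genes are known to be transcribed mainly by the few nuclei that lie beneath the nerve ending, under the control of agrin, LRP4 and the kinase MuSK. When the nerve is lost, the receptor genes, Musk, the myogenic factor myogenin (Myog), the adhesion molecule NCAM (Ncam1) and the transcription factor RUNX1 are known to become active along the rest of the fiber.

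The values are unique molecular identifiers (UMIs), each of which marks 1 captured RNA molecule. They were summed over all nuclei of a class and library and are given as CPM, the usual scaling of counts by the total UMIs of that class and library. The Ctrl matrix held 3863 barcodes and the cKO matrix 3994, with a median of 2106 and 1662.5 UMIs, and 5 barcode sequences occurred in both. After filtering, 3526 Ctrl and 3595 cKO nuclei were used. With 1 library per group there is no test, no p-value and no spread between animals. The 95% intervals given here cover counting error only. Reads in introns, where they are counted, add to long genes, so levels are compared between nuclei and not between genes. As a check of the deletion, Plpp7 had 51.3 CPM in Ctrl and 41.1 in cKO fiber nuclei. Only the first exon is removed and the assay reads the 3′ end, so this gene checks the labels only in part.

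A fiber nucleus was called synaptic when it held at least 4 UMIs from at least 2 of the genes Ache, Colq, Etv5, Ufsp1, Ano4 and Lrfn5, none of which is a gene described here. Ache is acetylcholinesterase, Colq anchors it in the synaptic cleft, and Etv5 is a transcription factor of synaptic nuclei. The rule was met by 23 of 2990 Ctrl fiber nuclei, or 0.769% (95% Clopper-Pearson interval 0.488 to 1.15). It was met by 33 of 3305 cKO fiber nuclei, or 0.998% (0.688 to 1.40), and the difference of 0.229 percentage points had an interval of -0.263 to 0.719. The share thus did not differ beyond counting error. Colq was also higher in cKO in fiber nuclei that did not meet the rule, at 3.96 CPM in Ctrl and 19.1 in cKO. What part this has in the share was not tested. Clustering without the 9 genes put 22 of the 23 Ctrl and 29 of the 33 cKO synaptic nuclei in 1 cluster, cluster 9. All 6 genes of the rule were detected there, and it is called synaptic-like. The genes of the rule were not left out of the clustering, so this overlap and the name are a description and no independent check of the rule. Of the others, 4 cKO nuclei were in cluster 1 and 1 Ctrl nucleus was in cluster 4.

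The synaptic nuclei held the fiber genes, and markers of other cells were at different levels from list to list. The summed level of 9 fiber genes such as Ttn and Ckm was 59897 CPM in Ctrl and 54594 in cKO synaptic nuclei, near the 67504 and 61323 CPM of the remaining fiber nuclei. Of 8 Schwann cell markers, 7 were at 0 in the synaptic nuclei of either library, and of 6 satellite cell markers, 6 were at 0 in Ctrl and 5 in cKO. The summed level of 6 immune markers was higher than in the remaining fiber nuclei, at 248 against 16.6 CPM in Ctrl and 246 against 8.82 CPM in cKO, although 5 of the 6 were at 0 in Ctrl and 4 in cKO. FAP markers (fibro-adipogenic cells of the tissue between fibers) had 386 CPM in synaptic against 116 CPM in remaining nuclei of Ctrl, and 49.2 against 51.0 CPM in cKO. The part of such RNA in the values that follow was not tested.

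RNA of Chrna1, Chrnb1, Chrne, Musk and Ncam1 was at a higher level in synaptic than in remaining fiber nuclei of both libraries. Among the 6 genes with at least 20 UMIs over both classes, 5 were at least 2-fold higher in synaptic than in remaining fiber nuclei of Ctrl and 5 in cKO, namely Chrna1, Chrnb1, Chrne, Musk and Ncam1 in both. Over all genes with that many UMIs, 18.3% in Ctrl and 14.5% in cKO were 2-fold higher. The median log2 ratio of the 6 genes was 3.37 in Ctrl and 3.06 in cKO, against -0.25 and -0.19 over all genes. The sixth, Runx1, did not pass 2-fold, with intervals that reach beyond it, and Chrnd, Chrng and Myog had too few UMIs for the ratio.

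**Figure D1:**
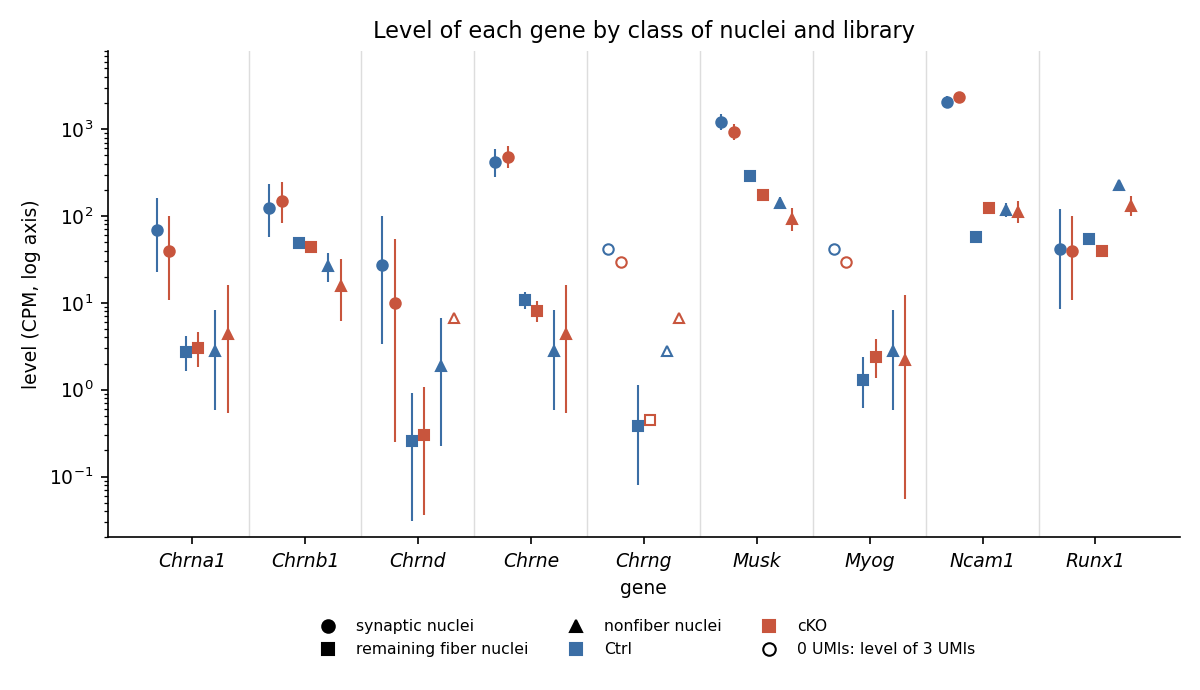
Level (CPM, log axis) of each of the 9 genes in synaptic (circles), remaining fiber (squares) and nonfiber nuclei (triangles) of the Ctrl (blue) and cKO (red) library, with 95% Poisson intervals and open symbols at the level of 3 UMIs where no UMI was found. Chrne, Musk and Ncam1 stand highest in synaptic nuclei of both libraries, while Chrng and Myog had 0 UMIs there.

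Chrne, which encodes the adult epsilon subunit (ENSMUSG00000014609, GRCm38 chromosome 11, 70614883 to 70619216, minus strand), was strongly concentrated in synaptic nuclei. It had 30 UMIs in Ctrl synaptic nuclei, 414 CPM (95% Poisson interval 279 to 591), and 49 UMIs in cKO synaptic nuclei, 482 CPM (357 to 638). In the remaining fiber nuclei it had 10.7 CPM (8.56 to 13.3) in Ctrl and 8.07 (6.06 to 10.5) in cKO. The intervals of the classes were far apart in both libraries, and those of the libraries overlapped within each class. The ratio of synaptic to remaining was 38.6 (24.5 to 59.2) in Ctrl and 59.8 (39.7 to 89.6) in cKO. Synaptic nuclei made up 0.917% of the fiber UMIs of Ctrl and 1.50% of those of cKO, yet they held 26.3% (18.5 to 35.4) and 47.6% (37.6 to 57.6) of the Chrne UMIs in fiber nuclei. At least 1 Chrne UMI was seen in 12 of 23 Ctrl and 23 of 33 cKO synaptic nuclei. The nonfiber nuclei, which should lack the gene, had 2.81 CPM (3 UMIs) in Ctrl and 4.41 (2 UMIs) in cKO. The ratio of remaining to nonfiber was 3.82 (1.26 to 18.9) in Ctrl and 1.83 (0.483 to 15.5) in cKO, so outside the synapse the cKO level is not told apart from background. Chrne lies over the antisense gene 4930544D05Rik in the annotation, and the strand setting of the counting is not given in the sources used here.

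The alpha and delta subunits had fewer UMIs than Chrne in synaptic nuclei. Chrna1, which encodes the acetylcholine-binding alpha subunit (ENSMUSG00000027107, chromosome 2, 73563215 to 73580338, minus strand), had 5 UMIs in Ctrl and 4 in cKO synaptic nuclei, 69.0 CPM (22.4 to 161) and 39.4 CPM (10.7 to 101). In the remaining fiber nuclei it had 2.68 CPM in Ctrl and 2.99 in cKO, no more than the 2.81 and 4.41 CPM of the nonfiber nuclei, and is read as background there. Its ratio of synaptic to remaining was 25.7 (7.58 to 70.1) in Ctrl and 13.2 (3.27 to 39.3) in cKO, from few UMIs in either. Chrnd, the delta subunit (ENSMUSG00000026251, chromosome 1, 87190607 to 87200070, plus strand), had 2 UMIs in synaptic and 2 in remaining nuclei of Ctrl, and 1 and 2 in cKO, all under the 3 UMIs used as a floor, so no ratio is given.

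Chrnb1, which encodes the beta subunit (ENSMUSG00000041189, chromosome 11, 69784036 to 69795943, minus strand), was less concentrated in synaptic nuclei than Chrne. It had 124 CPM (56.8 to 236) in Ctrl and 148 (82.6 to 244) in cKO synaptic nuclei, against 48.9 CPM (44.2 to 54.1) and 44.1 CPM (39.2 to 49.4) in the remaining fiber nuclei. The ratio was 2.54 (1.15 to 4.87) in Ctrl and 3.35 (1.85 to 5.61) in cKO, and the intervals of this ratio and that of Chrne did not overlap in either library. After thinning to 1000 UMIs only 9 Ctrl and 17 cKO nuclei still met the rule, so the class changed with the depth. In these the log2 ratio of Chrnb1 was 2.76 in Ctrl and 2.42 in cKO, instead of 1.34 and 1.74. Synaptic nuclei held 2.30% of its fiber UMIs in Ctrl and 4.84% in cKO. The nonfiber nuclei had 26.3 CPM in Ctrl and 15.4 in cKO, so the level in the remaining fiber nuclei was 1.86 times (1.27 to 2.84) and 2.86 times (1.37 to 7.17) the nonfiber level.

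The fetal subunit was nearly absent from the counts. Chrng, the gamma subunit (ENSMUSG00000026253, chromosome 1, 87204657 to 87212694, plus strand), lies 4586 bases downstream of Chrnd. It had 3 UMIs, in 3 remaining fiber nuclei of Ctrl, and 0 in cKO. For a count of 0 the Poisson interval ended at 50.9 CPM in Ctrl and 36.3 in cKO synaptic nuclei, and at 0.551 CPM in the remaining fiber nuclei of cKO. In the remaining fiber nuclei the interval of the ratio of cKO to Ctrl ended at 2.83, so a rise beyond that was not seen there. A smaller rise, or one in synaptic nuclei, was not detectable at this depth.

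Musk, which encodes the kinase that gathers the receptors (ENSMUSG00000057280, chromosome 4, 58285960 to 58374303, plus strand), was high in synaptic nuclei and was also seen in many others. It had 88 UMIs in Ctrl and 94 in cKO synaptic nuclei, 1214.5 CPM (974 to 1496) and 925 CPM (748 to 1132). In the remaining fiber nuclei it had 291 CPM (279 to 304) in Ctrl and 175 (165 to 185) in cKO, and in nonfiber nuclei 141 CPM (119 to 165) and 92.6 CPM (66.7 to 125). The order was thus synaptic, remaining fiber and nonfiber in both libraries, with no overlap between neighboring intervals. The ratio of synaptic to remaining was 4.17 (3.33 to 5.16) in Ctrl and 5.29 (4.24 to 6.54) in cKO. On the log2 scale it was 2.06 and 2.40. After thinning to 1000 UMIs it was 2.89 and 3.26, in the 9 Ctrl and 17 cKO nuclei that still met the rule. A Musk UMI was seen in 39.4% of the remaining fiber nuclei of Ctrl (median 2138 UMIs) and 16.8% of the nonfiber nuclei (median 1297 UMIs). With each nucleus thinned at random to 500 UMIs these shares were 12.2% (11.1 to 13.5) and 6.72% (4.75 to 9.18), and in cKO 8.62% (7.68 to 9.63) and 5.17% (2.92 to 8.39).

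Ncam1, which encodes the neural cell adhesion molecule (ENSMUSG00000039542, chromosome 9, 49502136 to 49798925, minus strand), had the most UMIs of the 9 genes in synaptic nuclei. There were 150 in Ctrl, 2070.2 CPM (1752 to 2429), and 239 in cKO, 2353 CPM (2064 to 2671). The 5 highest synaptic nuclei held 58% of these UMIs in Ctrl and 41.4% in cKO, an unevenness that the intervals do not cover. The remaining fiber nuclei had 58.0 CPM (52.8 to 63.6) in Ctrl and 124 (115 to 133) in cKO. The synaptic intervals of the libraries overlapped and those of the remaining nuclei did not. The ratio of synaptic to remaining was 35.7 (29.5 to 43.0) in Ctrl and 19.0 (16.4 to 22) in cKO. In Ctrl the interval overlaps that of Chrne, and in cKO it lies below. With clusters 1 and 8 left out of the remaining nuclei, the log2 ratio was 6.18 in Ctrl and 6.42 in cKO for Ncam1, against 5.23 and 5.44 for Chrne. This turn of the order follows from the choice of clusters. Cluster 1 held 55.7% in Ctrl and 85.4% in cKO of the Ncam1 UMIs of the remaining nuclei, but 5.95% and 9.26% of the Chrne UMIs. Ncam1 was seen in 21 of 23 Ctrl and 29 of 33 cKO synaptic nuclei. Nonfiber nuclei had 118 CPM in Ctrl and 112 in cKO. Satellite and Schwann cells are known to carry NCAM, but they formed no cluster of their own here.

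For Myog and Runx1, both transcription factors, no higher level in synaptic nuclei was detectable at this depth. Myog (ENSMUSG00000026459, chromosome 1, 134289989 to 134292548, plus strand) had 0 UMIs in synaptic nuclei, and 10 UMIs in Ctrl and 16 in cKO among the remaining fiber nuclei, 1.28 and 2.39 CPM. The nonfiber nuclei had 2.81 and 2.21 CPM, so these levels are not told apart from background. Runx1 (ENSMUSG00000022952, chromosome 16, 92601466 to 92826149, minus strand) had 41.4 CPM (3 UMIs) in Ctrl and 39.4 (4 UMIs) in cKO synaptic nuclei, against 54.3 and 39.5 CPM in the remaining fiber nuclei. The ratio was 0.762 (0.157 to 2.24) in Ctrl and 0.998 (0.270 to 2.58) in cKO, which does not exclude a 2-fold difference, and other settings put it past 2-fold higher. The log2 ratio was 1.54 in Ctrl with a rule of 3 UMIs. It was 1.25 in Ctrl and 1.01 in cKO after thinning to 1000 UMIs, and 1.66 in cKO without clusters 1 and 8. Thinning left only 9 Ctrl and 17 cKO synaptic nuclei, and the value of 1.66 still rests on 4 UMIs. The values of both settings thus come from very few Runx1 UMIs. Nonfiber nuclei, which include immune cells known to express RUNX1, had 228 CPM in Ctrl and 130 in cKO.

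**Figure D2:**
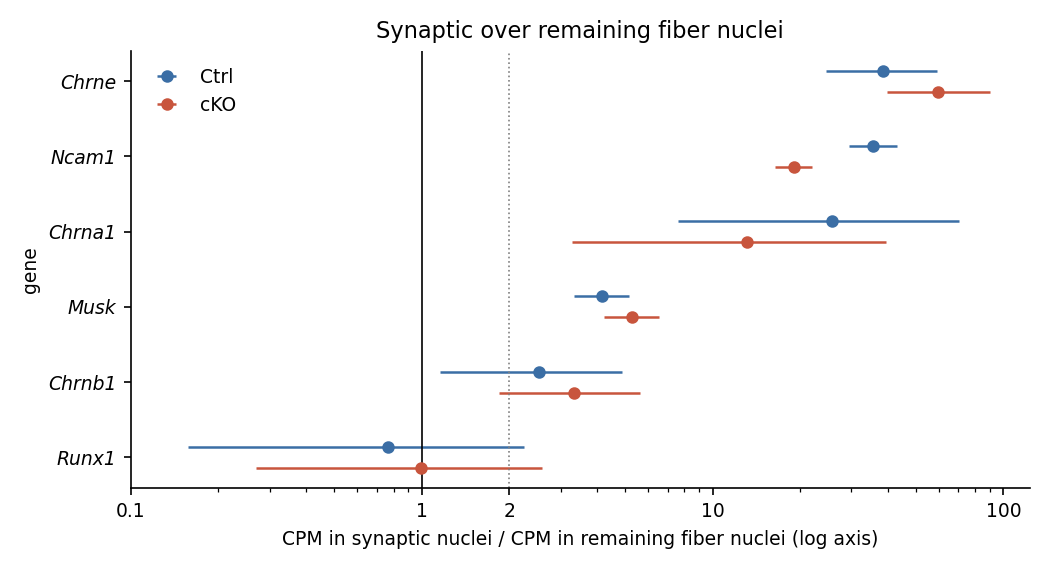
Ratio of the CPM in synaptic nuclei to the CPM in the remaining fiber nuclei (log axis) for the 6 genes with at least 20 UMIs, in the Ctrl (blue) and cKO (red) library, with 95% counting intervals and a dotted line at 2-fold. The ratio of Chrne was 38.6 in Ctrl and 59.8 in cKO, that of Chrnb1 2.54 and 3.35, and the intervals of Runx1 span 1.

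Promoter sequence is shown for 4 genes that ranged from strongly to weakly enriched in synaptic nuclei. RefSeq windows from 250 bases before to 50 bases after the transcription start (GRCm38.p6) were found for 7 of the 9 genes. They were searched on both strands for the E-box, CANNTG, the motif of myogenin and its relatives, and for the N-box, CCGGAA, known from synaptic promoters and bound by ETS-family factors. An E-box was found in a window of all 7 genes, and in 72.3% of all 32851 promoters. The E-box form CAGCTG, a subset of the first motif, was in the windows of Chrna1, Chrne, Chrng and Musk, and in 16.3% of all promoters. An N-box was found in Chrne and in 1 of the 2 windows of Runx1, against 14.9% of all promoters. In the lines that follow, each 5′ to 3′ on the strand of the gene, capitals mark the E-boxes and, in Chrne, the N-box CCGGAA, which begins 76 bases before the start. The windows are chr11:70619145-70619444 (minus) for Chrne, chr2:73580289-73580588 (minus) for Chrna1, chr4:58285712-58286011 (plus) for Musk and chr11:69795888-69796187 (minus) for Chrnb1.
Chrne: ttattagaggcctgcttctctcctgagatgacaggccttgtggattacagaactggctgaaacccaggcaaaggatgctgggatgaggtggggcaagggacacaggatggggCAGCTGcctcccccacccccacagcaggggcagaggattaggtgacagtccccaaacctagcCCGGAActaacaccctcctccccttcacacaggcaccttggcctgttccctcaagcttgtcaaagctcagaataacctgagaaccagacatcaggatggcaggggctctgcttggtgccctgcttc
Chrna1: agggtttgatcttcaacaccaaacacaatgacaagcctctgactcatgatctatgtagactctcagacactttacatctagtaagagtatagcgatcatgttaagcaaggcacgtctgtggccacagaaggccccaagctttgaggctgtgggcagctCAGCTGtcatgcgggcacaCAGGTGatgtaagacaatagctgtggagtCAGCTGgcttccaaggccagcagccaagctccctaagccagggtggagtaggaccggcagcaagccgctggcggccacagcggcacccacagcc
Musk: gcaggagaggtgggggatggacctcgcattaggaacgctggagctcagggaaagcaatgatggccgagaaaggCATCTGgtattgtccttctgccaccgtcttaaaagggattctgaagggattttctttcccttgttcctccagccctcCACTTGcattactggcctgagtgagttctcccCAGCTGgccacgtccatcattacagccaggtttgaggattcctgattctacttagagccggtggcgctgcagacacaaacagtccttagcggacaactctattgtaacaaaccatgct
Chrnb1: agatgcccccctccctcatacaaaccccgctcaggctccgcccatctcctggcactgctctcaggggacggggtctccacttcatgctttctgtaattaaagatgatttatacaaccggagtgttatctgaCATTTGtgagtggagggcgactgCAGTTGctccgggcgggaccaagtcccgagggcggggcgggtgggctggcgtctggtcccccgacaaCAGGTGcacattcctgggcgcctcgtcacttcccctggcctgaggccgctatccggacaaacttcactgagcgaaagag
The E-boxes began 138 bases before the start in Chrne, 92, 73 and 44 before it in Chrna1, 177, 100 and 68 in Musk, and 119, 96 and 29 in Chrnb1. Chrnb1, the least enriched of the 4, held 3 E-boxes but none of the form CAGCTG. A match is a description of these letters and does not show that a factor binds there.

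The levels of Chrne, Musk and Ncam1 were read across the threshold of the synaptic rule, by the number of UMIs of its 6 genes in a fiber nucleus. Nuclei with 0 such UMIs, 2856 in Ctrl and 3104 in cKO, had 8.96 and 7.13 CPM of Chrne and 52.4 and 105 CPM of Ncam1. With 2 to 3 UMIs, just outside the rule (16 Ctrl and 27 cKO nuclei), Chrne had 99.6 CPM (32.3 to 232) in Ctrl and 20.7 (2.51 to 74.7) in cKO, and Ncam1 179 CPM (82.0 to 340) and 383 CPM (270 to 528). By these values Chrne and Ncam1 stood between the nuclei with 0 UMIs and the synaptic nuclei, though the cKO interval of Chrne reaches down to the former. Musk did not in cKO, at 134 CPM (71.6 to 230) with 2 to 3 UMIs against 171 CPM with 0, while in Ctrl it was 359 CPM (213 to 567) against 291 CPM.
Just inside, nuclei with 4 to 5 UMIs that met the rule (7 in Ctrl and 9 in cKO) had 469 CPM (234 to 838) and 115 CPM (37.3 to 268) of Chrne and 2258 CPM (1691 to 2953) and 1446 CPM (1111 to 1850) of Ncam1. Musk in these nuclei was 724 CPM (422 to 1159) in Ctrl and 298 (159 to 510) in cKO. With 10 or more UMIs (9 and 15 nuclei) Musk was 1527 CPM (1133 to 2013) in Ctrl and 1540 (1193 to 1955) in cKO. The Musk values of the libraries were close where the synaptic genes were highest and farther apart just inside the rule, with overlapping intervals in both. Another 5 Ctrl and 5 cKO nuclei held 4 to 5 UMIs from 1 gene only and failed the rule. Their Ncam1 levels, 1151 CPM (682 to 1820) in Ctrl and 1032 (654 to 1548) in cKO, were below those of the nuclei that met it, with overlapping intervals. In cKO, 2 nuclei with 6 to 9 UMIs also failed the rule, with 0 Ncam1 UMIs and 1481 CPM (789 to 2533) of Musk.

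**Figure D3:**
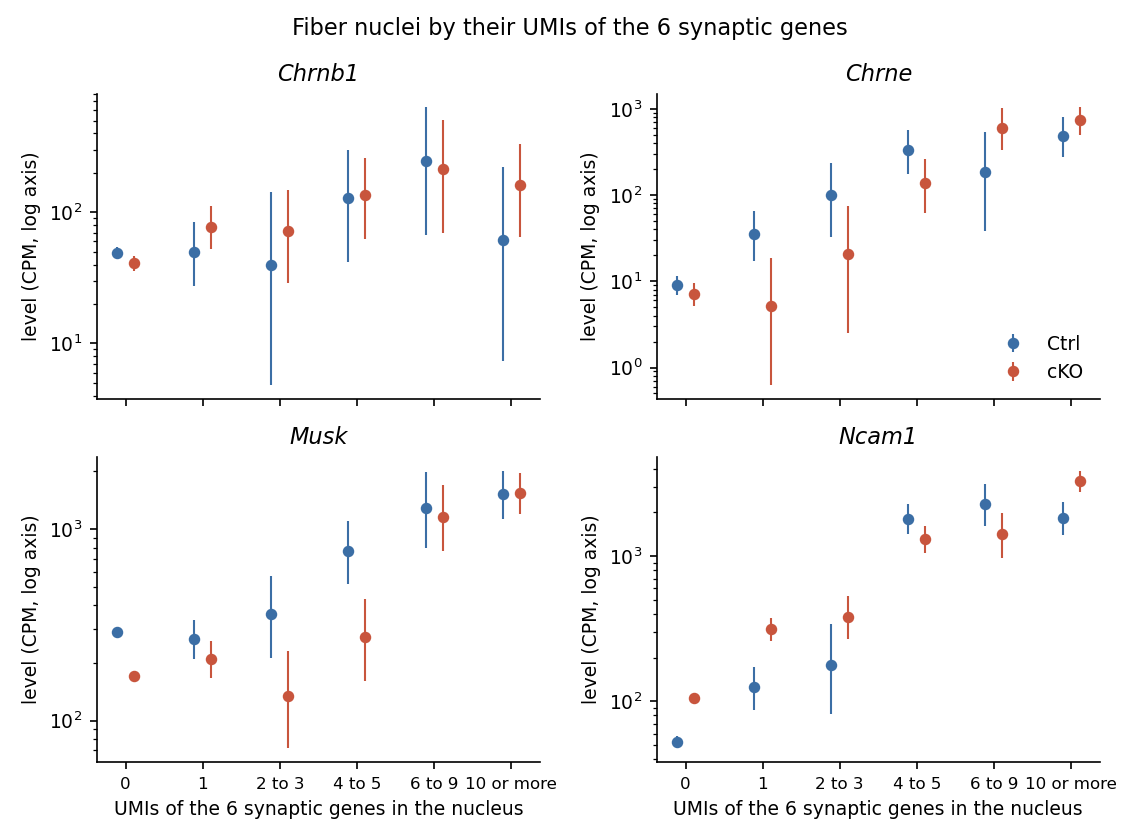
Level (CPM, log axis) of Chrnb1, Chrne, Musk and Ncam1 in fiber nuclei grouped by their UMIs of the 6 synaptic genes, in the Ctrl (blue) and cKO (red) library, with 95% Poisson intervals. Ncam1 stands at 52.4 CPM in Ctrl and 105 in cKO nuclei with 0 such UMIs and above 1000 CPM in both from 4 UMIs on, while Chrnb1 varies less.

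Within synaptic nuclei, the loss of Net39 went with no 2-fold difference in any member that could be compared. Of the 4 genes with at least 20 UMIs over both libraries, 0 were 2-fold higher and 0 were 2-fold lower in cKO, against 6.25% and 9.24% of all genes with that many UMIs. The ratio of cKO to Ctrl was 1.17 (0.725 to 1.90) for Chrne, 1.19 (0.487 to 3.08) for Chrnb1, 1.14 (0.923 to 1.40) for Ncam1 and 0.762 (0.564 to 1.03) for Musk. All 4 intervals include 1, and those of Chrnb1 also include 2-fold. These values rest on 23 and 33 nuclei, and intervals this wide do not show that the libraries were alike. With every nucleus thinned to 1000 UMIs before the rule was applied, only 9 Ctrl and 17 cKO nuclei were synaptic. In these few nuclei Chrne was 1.67 higher on the log2 scale in cKO, instead of 0.22. It was 0.97 higher with a rule of 6 UMIs, 0.99 with fiber nuclei taken by markers, 0.94 with equal weight for each nucleus and 0.72 with the synaptic-like cluster in place of the rule. With that cluster, Musk turned from -0.39 to 0.07 and Chrnb1 moved from 0.25 to 0.85 on the log2 scale, and over the settings tried Ncam1 ranged from -0.01 to 0.73. Summed type I markers, 8 genes such as Myh7 and Tnnt1, were at 221 CPM in Ctrl and 1457 in cKO synaptic nuclei. They were higher in the cKO library in the other classes as well, at 144 and 1584 CPM in remaining and 172 and 889 CPM in nonfiber nuclei, and their part in these ratios was not tested. Of the synaptic nuclei, 0 of 23 in Ctrl and 1 of 33 in cKO had Myh7 as main myosin, and 11 and 15 had Myh4.

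In the remaining fiber nuclei, Ncam1 was higher in the cKO library than in Ctrl, and Musk and Runx1 were lower in sum. Of the 7 genes with at least 20 UMIs, 1, Ncam1, was 2-fold higher and 0 were 2-fold lower, against 4.06% and 5.16% of all genes. The ratio of cKO to Ctrl was 2.13 (1.90 to 2.40) for Ncam1, 0.60 (0.559 to 0.644) for Musk and 0.727 (0.621 to 0.849) for Runx1. On the log2 scale the differences were 1.09, -0.74 and -0.46, beside a median of -0.08 over all genes. Runx1 was -0.83 with equal weight for each nucleus and -0.97 without clusters 1 and 8. Without the 15 Ctrl and 9 cKO nuclei with at least 5 Runx1 UMIs, it was 27.1 CPM in Ctrl and 31.8 in cKO. That is a ratio of 1.17 (0.964 to 1.43). These nuclei were picked by their own Runx1 count. They held 215 of 425 UMIs in Ctrl but 53 of 264 in cKO, so leaving them out had to raise the ratio. With nuclei of at least 5 UMIs of the gene left out in the same way, Ncam1 had a ratio of 3.19 (2.66 to 3.83) and Musk 0.667 (0.618 to 0.720). The subunit genes differed less. The ratio was 0.901 (0.772 to 1.05) for Chrnb1, 0.752 (0.524 to 1.07) for Chrne and 1.11 (0.573 to 2.16) for Chrna1, and for Myog it was 1.87 (0.799 to 4.61) from 10 and 16 UMIs. The intervals of these genes include 1, and for 3 of them the direction turned with the setting. The log2 ratio of Chrna1, 0.16 here, was -0.69 with equal weight for each nucleus and -0.60 with fiber nuclei taken by markers. That of Myog, 0.90 here, was -0.15 at the Ctrl mix of clusters, and that of Chrne, -0.41 here, was 0.01 without clusters 1 and 8.

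Summed over the nonfiber nuclei, where this Cre is not known to act, Musk and Runx1 were also lower in cKO, but not in every nonfiber cluster. The ratio there was 0.659 (0.456 to 0.933) for Musk and 0.571 (0.422 to 0.762) for Runx1, while for Ncam1 it was 0.952 (0.674 to 1.33). The FAP-like cluster 5 held 342 Ctrl and 158 cKO nuclei, the endothelial-like cluster 6 held 166 and 116, and the immune-like cluster 10 held 28 and 16, so the mix differed too. Musk was 139 CPM (113 to 170) in Ctrl and 50.4 (26.8 to 86.2) in cKO in cluster 5, but 141 CPM (102 to 189) and 153 CPM (100.1 to 224) in cluster 6. Runx1 was 223 CPM in Ctrl and 73.7 in cKO in cluster 5 and 144 and 29.5 CPM in cluster 6, but 648 CPM (474 to 864) in Ctrl and 1349 (939 to 1876) in cKO in cluster 10. The median depth of nonfiber nuclei was 1297 UMIs in Ctrl and 1147 in cKO. The share of UMIs from Malat1 and mitochondrial genes moved with the library too, at 26.9% in Ctrl and 31.8% in cKO among the remaining fiber nuclei. With these genes left out of the total, Musk was still -0.64 on the log2 scale and Runx1 -0.36. What part free RNA has in the lower Musk and Runx1 was not tested.

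**Figure D4:**
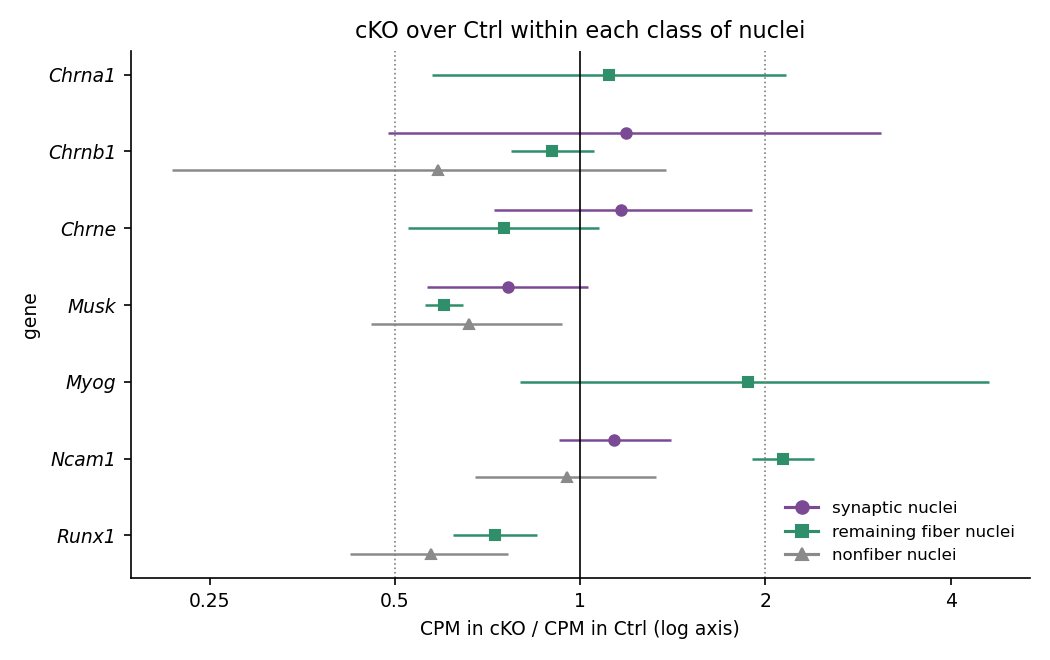
Ratio of the CPM in cKO to the CPM in Ctrl (log axis) within synaptic (purple), remaining fiber (green) and nonfiber nuclei (grey), for genes with at least 20 UMIs over both libraries, with 95% counting intervals and dotted lines at 2-fold in either direction. Only Ncam1 in the remaining fiber nuclei, at 2.13, lies beyond 2-fold, and Musk lies at 0.60 in those nuclei and 0.659 in nonfiber nuclei.

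The higher Ncam1 of cKO went with the number of nuclei in cluster 1. This cluster is type I-like, with all 8 type I markers detected, and came mostly from cKO: it held 5.86% of the remaining fiber nuclei of Ctrl and 28.7% of those of cKO. It held 253 of 454 Ncam1 UMIs in Ctrl and 707 of 828 in cKO, that is 55.7% and 85.4%. Within cluster 1 itself the level was 547 CPM in Ctrl and 318 in cKO, a ratio of 0.581 (0.502 to 0.673), in the direction opposite to that over all remaining nuclei. This direction rested on 11 of the 174 Ctrl nuclei, which held 196 of the 253 UMIs. Without the nuclei of cluster 1 with at least 5 Ncam1 UMIs, the level was 139 CPM in Ctrl and 173 in cKO, a ratio of 1.24 (0.939 to 1.68). In the Myh4-high cluster 0, which held 1407 Ctrl and 1034 cKO nuclei, Ncam1 was 11.9 CPM in Ctrl and 12.8 in cKO. At the Ctrl mix of clusters, the cKO level of Ncam1 would be 42.6 CPM, below the 58.0 CPM of Ctrl, with a log2 difference of -0.45. Without clusters 1 and 8, which each came mostly from 1 library, it was -0.05. The 2-fold higher Ncam1 of the cKO library therefore did not hold within the clusters that had at least 20 of its UMIs. In 5 of these 6 clusters the interval of the ratio includes 1, and in cluster 1 it lies below 1. It includes 1 in cluster 1 only without the nuclei just named, which were picked by their own Ncam1 count. In cluster 3, under that number of UMIs, the ratio was 7.42 (1.54 to 70.6), from 2 UMIs in 382 Ctrl and 9 in 303 cKO nuclei.

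A few nuclei held much of the Ncam1 RNA in cluster 1 of Ctrl. Of the remaining fiber nuclei, 23 in Ctrl and 33 in cKO had at least 5 Ncam1 UMIs, and they held 63.2% and 45.7% of its UMIs. The highest nucleus had 54 UMIs in Ctrl and 69 in cKO. In cluster 1 there were 11 such nuclei in Ctrl and 29 in cKO. The 11 Ctrl nuclei had 325 CPM of 6 satellite cell markers together and 286 CPM of the type I markers, against 22 and 2051 CPM in the other nuclei of that cluster. The 29 cKO nuclei had 33.3 CPM of the satellite cell markers, against 19.8 CPM in the other cKO nuclei of the cluster. They had 705 CPM of 4 myotendinous junction markers against 99.7 CPM in the others, and 705 CPM of the type I markers against 4526 CPM. In Ctrl the junction markers were at 363 CPM in the 11 nuclei and 99.99 CPM in the others. These nuclei were picked by their Ncam1 count after the data were seen, and the part of satellite cell and junction RNA in these levels was not tested. Without the nuclei holding 20 or more UMIs of any of the 9 genes, 4 in Ctrl and 5 in cKO among the remaining nuclei, Ncam1 was 1.33 higher in cKO on the log2 scale. The myotendinous junction-like cluster 7 also held Ncam1 outside the synaptic nuclei, with 251 CPM in Ctrl and 218 in cKO.

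Runx1 was concentrated in the same cluster of Ctrl. Its level in cluster 1 was 502 CPM in Ctrl and 81.3 in cKO, a ratio of 0.162 (0.133 to 0.198), and cluster 1 held 54.6% of its UMIs in the remaining nuclei of Ctrl. Of the 232 Runx1 UMIs of this cluster in Ctrl, 194 were in 12 of its 174 nuclei. Without the nuclei of cluster 1 with at least 5 Runx1 UMIs, the level was 94.5 CPM in Ctrl and 63.0 in cKO, a ratio of 0.667 (0.463 to 0.982). In Ctrl, 15 remaining nuclei with at least 5 Runx1 UMIs held 50.6% of them, 12 of these nuclei were in cluster 1, and 7 also had at least 5 Ncam1 UMIs, which is 46.7% of the Runx1-high and 30.4% of the Ncam1-high nuclei. The 12 nuclei of cluster 1 had 281 CPM of the satellite cell markers, against 22.4 CPM in the rest of that cluster. In cluster 8, an unnamed cluster led by genes such as Plekhh1 and Tmem100, Runx1 went the other way, with 57.5 CPM (22 UMIs) in 159 Ctrl nuclei and 445 CPM (28 UMIs) in 16 cKO nuclei, a ratio of 7.74 (4.27 to 14.2). In 5 of the 6 clusters with at least 20 UMIs Runx1 was lower in cKO, with the interval below 1 in 2 of them.

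Musk was lower in cKO across most clusters rather than in one. It was lower in 7 of 8 clusters, with the interval below 1 in 6 of them, at ratios from 0.392 in cluster 1 to 0.772 in cluster 0, and was higher in the few remaining nuclei of cluster 9 (1.28, 0.550 to 3.03). The highest level outside the synaptic-like cluster was in cluster 8, at 1007 CPM in Ctrl and 493 in cKO. Cluster 8 made up 5.36% of the remaining nuclei of Ctrl and 0.489% of those of cKO. At the Ctrl mix of clusters the cKO level was 187 CPM, so the log2 difference was -0.64 instead of -0.74. Unlike that of Ncam1, the difference of Musk kept its direction within 7 of 8 clusters. Its UMIs were spread over many nuclei, and the 5 highest held 3.03% of them in Ctrl and 3.08% in cKO.
Chrnb1 was spread likewise, with 3.92% and 4.07% in the 5 highest nuclei, and was lower in cKO in all 6 clusters with at least 20 UMIs, at ratios from 0.669 to 0.986 whose intervals all include 1. By main myosin gene, as used next, it was lower in cKO in Myh4 nuclei and those with no main myosin, and higher in Myh1 (1.29, 0.784 to 2.14), Myh2 (1.28, 0.625 to 2.79) and Myh7 nuclei (1.73, 0.285 to 71.1), again with intervals that include 1.

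**Figure D5:**
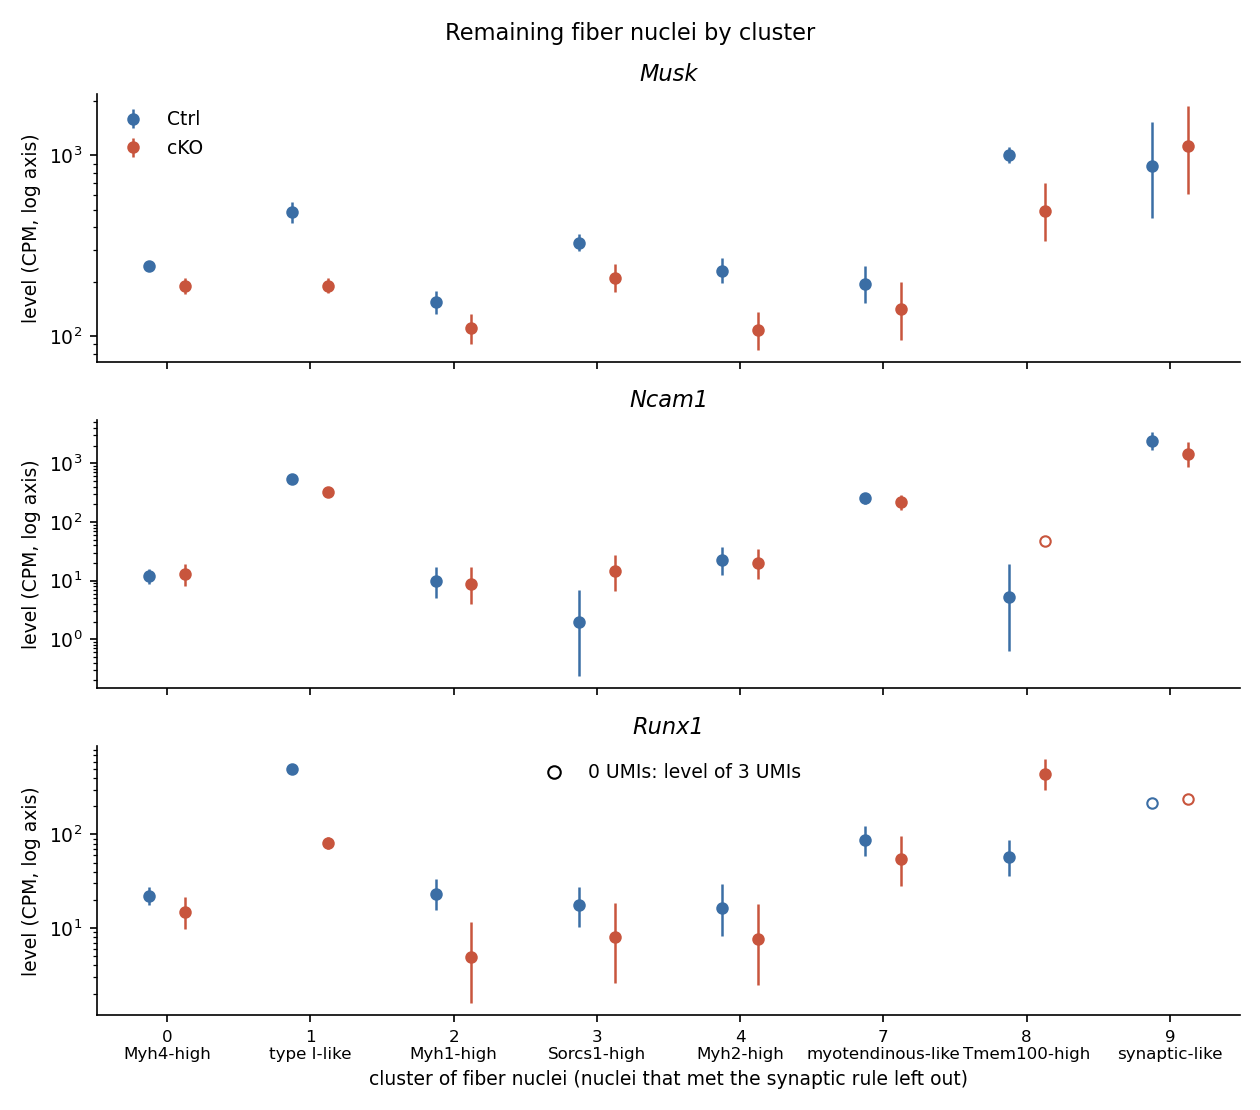
Level (CPM, log axis) of Musk, Ncam1 and Runx1 in the remaining fiber nuclei of each cluster, in the Ctrl (blue) and cKO (red) library, with 95% Poisson intervals and open circles at the level of 3 UMIs where no UMI was found. Musk is lower in cKO in 7 of 8 clusters, Ncam1 is high in clusters 1, 7 and 9 of both libraries, and Runx1 in cluster 1 is 502 CPM in Ctrl and 81.3 in cKO.

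Read by main myosin gene instead of cluster, Musk was lower in cKO in nuclei of the fast fiber types and in those with no main myosin. A nucleus with 3 or more UMIs of Myh7, Myh2, Myh1 and Myh4 was assigned to the gene with 60% or more of them, the myosins of type I, IIa, IIx and IIb fibers. Musk was 298 CPM in Ctrl and 191 in cKO in Myh4 nuclei, 273 and 157 CPM in Myh2 nuclei, and 172 and 112 CPM in Myh1 nuclei. In nuclei with no main myosin it was 348 CPM in Ctrl and 162 in cKO, a ratio of 0.465 (0.396 to 0.545). In Myh7 nuclei it was 247 CPM in Ctrl, from 10 UMIs in 19 nuclei, and 241 CPM in cKO. Ncam1 was higher in cKO in the fast classes by less than counting error, at 34.1 and 42.3 CPM in Myh4, 153 and 189 CPM in Myh1 and 49.1 and 81.4 CPM in Myh2 nuclei. It was 371 CPM in Ctrl (15 UMIs) against 145 CPM in cKO in Myh7 nuclei. Among nuclei with no main myosin it was 96.5 CPM in Ctrl and 249 in cKO, and these held 393 of the 828 cKO UMIs. By this grouping, then, Ncam1 was higher in cKO in 4 of 5 classes, while by cluster it was lower in 5 of the 6 with at least 20 UMIs. Runx1 was lower in cKO in Myh4 and Myh1 nuclei and in those with no main myosin. In the last it was 95.7 CPM in Ctrl and 61.6 in cKO, a ratio of 0.644 (0.486 to 0.851). Runx1 was higher in Myh2 nuclei, at 14.7 CPM (6 UMIs) in Ctrl and 42.2 (29 UMIs) in cKO, and had 0 and 7 UMIs in Myh7 nuclei. Chrne had 0 UMIs in the remaining Myh2 nuclei of both libraries.

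UMIs of several of the 9 genes seldom met in 1 nucleus outside the synapse. Synaptic nuclei had a median of 10 UMIs of the 9 genes in Ctrl and 10 in cKO, and the remaining fiber nuclei a median of 0. At 1000 UMIs per nucleus, at least 3 UMIs from at least 2 of the genes were found in 46 of 2920 remaining Ctrl nuclei, 1.58% (1.16 to 2.10), and in 30 of 2827 cKO nuclei, 1.06% (0.717 to 1.51). Too shallow for this were 47 nuclei of Ctrl and 445 of cKO, and the shares at full depth were 8.26% and 5.10%. At full depth the share was highest in cluster 9 of Ctrl, at 85.7% of 7 nuclei, and in cluster 8 of cKO, in 8 of 16 nuclei. In cluster 1 it was 29.3% in Ctrl and 11.9% in cKO. Nuclei with several of these genes were thus not more frequent in the cKO library.

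Other genes of the postsynaptic apparatus followed the receptor genes in part. Of 16 such genes, 13 had enough UMIs in Ctrl and 14 in cKO, and 7 were at least 2-fold higher in synaptic nuclei of each library, beside 18.3% and 14.5% of all genes. With 0 or 1 UMIs in synaptic nuclei, 2 genes in Ctrl (Agrn and Dok7) and 4 in cKO (Dok7, Erbb3, Erbb4 and Rapsn) had a ratio on the lower side of 2-fold, as had 37.1% and 32.2% of all genes. This does not show lower levels, since the interval lay below 1 only for Erbb4 in cKO, where it ended at 0.629. The median log2 ratio was 1.95 in Ctrl and 0.91 in cKO, with genes at 0 UMIs in synaptic nuclei taken as the lowest. Hs6st2, a heparan sulfate sulfotransferase, had a ratio of 141 (96.9 to 205) in Ctrl and 83.9 (63.6 to 111) in cKO. Prkar1a, a regulatory subunit of protein kinase A, had 46.4 (33.2 to 64.1) and 36.2 (27.4 to 47.5). Utrn, the synaptic relative of dystrophin, had 33.2 (26.3 to 41.6) in Ctrl and 23.9 (19.8 to 28.9) in cKO. Dok7, the adaptor that activates MuSK, had 0 UMIs in synaptic nuclei of both libraries. The Poisson intervals there ended at 50.9 CPM in Ctrl and 36.3 in cKO, above its 29.6 and 16.4 CPM in the remaining nuclei. Rapsn, which encodes the receptor-clustering protein rapsyn, had 2 UMIs in Ctrl and 1 in cKO synaptic nuclei. Agrn also had 0 in Ctrl and Erbb3 and Erbb4 had 0 in cKO, with Erbb4 at 58.0 CPM in the remaining nuclei there. In the remaining fiber nuclei, 1 of 14 genes, Hs6st2, was 2-fold higher in cKO and 1, Col13a1, was 2-fold lower, near the 4.06% and 5.16% of all genes.

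Of the wider denervation response, 6 of 16 genes with enough UMIs were at least 2-fold higher and 4 were at least 2-fold lower in the remaining fiber nuclei of cKO, beside 4.06% and 5.16% of all genes, and the median log2 ratio was -0.36. The type I markers were higher in cKO in the same nuclei, at 144 CPM in Ctrl and 1584 in cKO, and their part in these counts was not tested. Sln, the calcium pump inhibitor sarcolipin, had 0 UMIs in Ctrl and 309 in cKO, 120.5-fold higher with Ctrl set to the floor of 3 UMIs. Rrad, a small GTP-binding protein, was 7.45 times as high (4.57 to 12.8), Myh3, the embryonic myosin, 5.41 times (2.48 to 13.5), from 8 UMIs in 3 Ctrl nuclei and 37 in 10 cKO nuclei, and the stress-responsive gene Ankrd1 2.90 times (2.22 to 3.8). Myod1, a myogenic factor related to myogenin, had a ratio of 0.359 (0.215 to 0.579). The other genes past 2-fold were Ampd3 and Hdac9 upward and the muscle ubiquitin ligases Fbxo32 and Trim63, with Gadd45a, downward. The list did not move one way. In synaptic nuclei 5 genes of the list had enough UMIs, and 2 were 2-fold higher and 0 were 2-fold lower in cKO, beside 6.25% and 9.24% of all genes. Ankrd1 had 0 UMIs in Ctrl and 24 in cKO, all in 2 of the 33 cKO nuclei, 5.71-fold higher with Ctrl set to the floor of 3 UMIs. Hdac9, a histone deacetylase, was 55.2 CPM (4 UMIs) in Ctrl and 285 in cKO, a ratio of 5.17 (1.82 to 20.2), and Fbxo32 was 718 and 423 CPM, a ratio of 0.590 (0.384 to 0.901). Colq, one of the synaptic genes of the rule, was 3.96 CPM in Ctrl and 19.1 in cKO in the remaining fiber nuclei, a ratio of 4.83 (3.24 to 7.4). In synaptic nuclei it was 511 CPM in Ctrl and 423 in cKO. Its UMIs help to define both classes, so these levels are a description and not independent of the rule.

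The genes most like each member in level were taken over 14 points, the synaptic, nonfiber and myosin classes of both libraries, by the correlation of log2(CPM + 10). The points share 2 libraries, so the correlations describe these classes and have no p-value. Genes near in level were Fam19a4 (Pearson r 0.973), Rps6ka1 (0.965) and Dennd2c (0.965) for Chrne, Prex1 (0.908) for Ncam1 and Maml2 (0.896) for Runx1. Among the members themselves Chrne was nearest to Chrnb1 (0.907), Musk (0.846) and Ncam1 (0.832), while Runx1 and Musk had an r of -0.30. Chrna1, Chrnd, Chrng and Myog had under 100 UMIs and were not compared.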

How the data were processed

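Nuclei of GP muscle were sequenced in 1 Ctrl and 1 cKO library, each from 3 pooled muscles. The authors made matrices with Cell Ranger 3.1.0 on mm10 and deposited raw counts of UMIs per gene and barcode. The study states that default parameters were used. The annotation release, the handling of introns and the strand setting are not named in the sources used here. The labels and the study's methods name different kit versions, so the chemistry is unsettled.

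Nuclei with under 100 genes, under 500 UMIs or over 10% mitochondrial UMIs were removed, which left 3833 Ctrl and 3908 cKO nuclei. Scrublet (scanpy 1.11.5) marked 0 doublets at its automatic threshold, so the 8% with the highest scores were removed, 307 and 313 nuclei. Clusters came from Seurat 5.3.0 and sctransform 0.4.2 (R 4.3.3) at resolution 0.3 with 25 principal components, on integrated features without the 9 genes (2996 left). A cluster was nonfiber with 3 detected markers of a nonfiber class and fiber genes under 75% of the level elsewhere. UMIs were summed per class and library. Intervals are exact (Poisson for CPM, conditional for ratios, Clopper-Pearson for shares) and cover counting error only, as do floors of 3 UMIs. Ratios needed 20 UMIs over the compared groups, and 2-fold was the size named. Scripts (Python 3.11.15, scipy 1.17.1) were tested on simulated counts.

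The 9 genes and all lists were chosen with earlier results of these data known. Named were the 9 genes, the 6 genes of the rule, Plpp7, up to 5 genes per list and comparison by size of ratio, and up to 3 most alike genes per member, of which those of Chrnb1 and Musk are not reported here. Other list genes past 2-fold were named after their values were seen. Coordinates are from GENCODE M21 (GRCm38), in which all 9 gene identifiers were found, and promoters from RefSeq.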

Additional observations from a re-analysis of the deposited data

How the results depend on the processing

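The counts of genes 2-fold higher in synaptic nuclei, 5 in Ctrl and 5 in cKO, stayed between 4 and 6 under all 12 alternatives. The number 2-fold higher in the remaining nuclei of cKO, 1 as reported, was 0 with doublets kept, with nuclei thinned to 1000 UMIs and when each nucleus was given equal weight in the mean CPM, and 2 with Malat1 and mitochondrial genes left out. Of alternatives chosen after seeing the data, it was 0 without clusters 1 and 8 and at the Ctrl mix of clusters, where Ncam1 turned from 1.09 to -0.052 and -0.45 on the log2 scale, and 2 without nuclei holding 20 or more UMIs of a member. Within cluster 1, leaving out the nuclei with 5 or more UMIs of the gene, also chosen after seeing the data, turned Ncam1 from -0.78 to 0.32 and moved Runx1 from -2.63 to -0.58. These counts of genes rest on Ncam1 and Myog, near 2-fold at log2 1.09 and 0.90. In synaptic nuclei, 1 gene instead of 0 was 2-fold higher in cKO after thinning to 1000 UMIs, which left 9 Ctrl and 17 cKO nuclei. This gene was Chrne, whose log2 ratio ranged from 0.10 to 1.67. With no minimum of UMIs, 1 gene was 2-fold lower (Chrnd, 1 against 2 UMIs). The cKO minus Ctrl difference in the share of synaptic nuclei ranged from 0.0812 to 0.446 percentage points. Musk in the remaining nuclei was lower in cKO in each setting run, from -0.79 to -0.56. Runx1 ranged from -0.97 to -0.24, but turned to 0.23 without nuclei holding 5 or more of its UMIs, a cut made on its own count. Treated likewise for their own UMIs, Ncam1 was 1.67 and Musk -0.58. No paired analysis was possible because each group has 1 library. Depth limits Chrna1, Chrnd, Chrng and Myog, and no replicate could be left out.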
